A study of Mus musculus with 6 samples.

Results

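The neutrophil granule and calprotectin genes S100a8, S100a9, Lcn2, Ngp, Camp, Ltf, Retnlg, Csf3r and Slpi were taken by gene symbol from the deposited expression table. All 9 symbols were found, each on 1 row, among the 45038 genes of the table. The values came from 6 RNA sequencing libraries of C57BL/6 mice carrying Tie2-Cre and Rosa-LSL-tdTomato, aged 6 to 8 weeks at surgery per the labels' protocol. The Tie2 promoter that drives Cre works in endothelium and in some blood cell precursors, so the reporter also marks leukocytes. In the MI group (n = 3), the left anterior descending coronary artery was tied and infarct tissue was taken 3 weeks later; in the Normal group (n = 3), normal left ventricle was taken and the labels state that no such surgery was done. From both groups, cells carrying tdTomato and lacking the macrophage antigen F4/80 were sorted. The titles number the libraries Ms1535, Ms1537 and Ms1608 in each group, and nothing in the labels says whether a shared number means a shared mouse or that the libraries of a group came from separate mice. P-values therefore measure the spread between these libraries, which may in part be technical.

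Neutrophils are short-lived leukocytes made in bone marrow, which fill their granules in sequence while they mature. Primary granules, with myeloperoxidase and elastase, form first; secondary granules, with lactoferrin, cathelicidin, lipocalin 2 and neutrophilic granule protein, form next, and transcription of the genes for both falls before the cell enters the blood. Calprotectin, the S100a8 and S100a9 heterodimer, fills the cytosol, and its transcripts stay abundant in circulating neutrophils and in monocytes. Neutrophils do not carry F4/80, so a gate on that antigen does not remove them.

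Values are FPKM, that is fragment numbers divided by transcript length and library total. The totals implied by the spacing of low values were 34.8 to 48.1 M fragments per library (M for mega). Normal Ms1608 stood apart from the other libraries. Its correlation with them across tested genes was 0.54 to 0.68, against 0.80 to 0.92 among the other 5; genes are not independent, so these values only describe the libraries. The sort was meant to yield endothelial cells, and the summed FPKM of 10 endothelial markers was 9.09 in Normal Ms1608, 1168.5 and 844 in the other Normal libraries, and 259 to 1021 in MI. The summed FPKM of 10 markers shared by leukocytes was 3920.1 in Normal Ms1608, 286 and 408 in the other Normal libraries, and 2099 to 2436 in MI. Results are therefore given with and without Normal Ms1608. Because these leukocyte values helped to set that library apart, leukocyte genes called higher without it are not an independent result. In such bulk libraries, fewer cells of a type and less RNA per cell cannot be told apart.

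The calprotectin genes lie close together on chromosome 3 of GRCm38. S100a8 spans chr3:90668978-90670035 on the plus strand and S100a9 chr3:90692632-90695721 on the minus strand, with 22596 bases between them. Ngp (chr9:110419747-110423012, plus), Camp (chr9:109847379-109849617, minus) and Ltf (chr9:111019271-111042767, plus) share chromosome 9. Lcn2 (chr2:32384633-32388252) and Slpi (chr2:164354070-164389095) are on the minus strand of chromosome 2, Retnlg (chr16:48872621-48874496) and Csf3r (chr4:126024550-126044440) on the plus strand of chromosomes 16 and 4. All 9 are protein-coding, with up to 17 exons in Ltf and Csf3r, 7 in Lcn2, 4 in Ngp, Camp, Retnlg and Slpi, and 3 in S100a8 and S100a9. The microRNA gene Mir7678 overlaps Slpi on the same strand; no other member overlapped another annotated gene.

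Upstream sequences are shown for the 5 members that formed the pair of contrasting patterns described below, the calprotectin genes and the 3 secondary granule genes of chromosome 9. They come from RefSeq (GRCm38.p6), 5′ to 3′ on the gene's strand, and cover the part of the 250 bases before the RefSeq start that lies outside the gene as GENCODE annotates it. Capitals mark matches on either strand to TTNNGNAA, a pattern of C/EBP factors, which drive granulocyte maturation.
S100a8, chr3:90668821-90668977, plus strand: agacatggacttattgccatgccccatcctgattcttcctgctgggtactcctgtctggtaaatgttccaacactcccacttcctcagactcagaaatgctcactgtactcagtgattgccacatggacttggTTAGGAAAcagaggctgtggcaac
S100a9, chr3:90695722-90695971, minus strand: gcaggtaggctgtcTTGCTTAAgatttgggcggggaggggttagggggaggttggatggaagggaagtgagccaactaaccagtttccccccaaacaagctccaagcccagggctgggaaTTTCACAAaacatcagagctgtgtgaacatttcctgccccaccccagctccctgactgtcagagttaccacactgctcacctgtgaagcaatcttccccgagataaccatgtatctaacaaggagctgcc
Ngp, chr9:110419558-110419746, plus strand: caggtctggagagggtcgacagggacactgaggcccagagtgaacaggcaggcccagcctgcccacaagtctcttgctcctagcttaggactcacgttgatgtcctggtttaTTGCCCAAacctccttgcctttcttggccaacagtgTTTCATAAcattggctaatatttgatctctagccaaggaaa
Ltf, chr9:111019042-111019270, plus strand: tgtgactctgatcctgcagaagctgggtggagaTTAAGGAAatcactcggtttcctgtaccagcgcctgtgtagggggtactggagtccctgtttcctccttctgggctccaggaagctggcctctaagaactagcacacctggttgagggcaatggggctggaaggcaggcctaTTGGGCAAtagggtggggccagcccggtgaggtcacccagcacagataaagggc
Camp, chr9:109849618-109849706, minus strand: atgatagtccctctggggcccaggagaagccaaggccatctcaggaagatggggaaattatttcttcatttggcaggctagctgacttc

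RefSeq held 1 start for each of the 9 members. In the full 250 bases, the C/EBP pattern TTNNGNAA was found in 7 of 9 members, against 36.8% of 32851 RefSeq promoter windows of that length. Ngp had 3 matches, of which 2 lie in the stretch shown, Ltf and S100a9 had 2 and S100a8 had 1. Camp and Csf3r had none. GAGGAA, a core pattern of PU.1, a factor of myeloid cells, was found in S100a8, Lcn2, Ltf and Csf3r, 4 of 9 members, against 23.3% of all windows, and no match overlapped one to another pattern. TATAAA, the TATA box, was found in S100a8 alone of the 9, starting 30 bases before the start, against 12.4% of all windows. Ngp and Camp, whose levels ran in parallel, thus differed in these matches, which describe letters and not binding.

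Calprotectin transcripts were abundant in every library, with and without infarction. S100a8, which encodes the smaller calprotectin subunit, was found at 2945, 4624 and 5474 FPKM in the MI libraries Ms1535, Ms1537 and Ms1608, at 1069.9 and 1200.3 FPKM in the Normal libraries Ms1535 and Ms1537, and at 6890.1 FPKM in Normal Ms1608. All MI libraries thus lay above the first 2 Normal libraries, while Normal Ms1608 lay above every MI library. By level, S100a8 ranked between 5 and 57 among the 10168 genes that reached 1 FPKM in 3 or more libraries. S100a9, the partner subunit, was measured at 1455, 4478 and 6062 FPKM across MI and at 1341, 798 and 6169 FPKM across Normal, in the same order of libraries. MI Ms1535 was only slightly above Normal Ms1535 for this gene, and Normal Ms1608 was again the highest library. The ratio of S100a8 to S100a9 was 2.02, 1.03 and 0.903 in MI and 0.798, 1.504 and 1.12 in Normal, so the groups overlapped and neither subunit was in constant excess.

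Group means of S100a8 were 4347 ± 1287 FPKM across MI and 3053 ± 3323 FPKM across Normal (SD, n = 3 each). Subtracting the Normal from the MI mean of log2(FPKM + 1) gave a difference of 1.02 (SE 0.71, limma adjusted p = 0.459). For S100a9 it was 0.86 (SE 0.81, limma adjusted p = 0.590), from 3998 ± 2341 and 2769 ± 2957 FPKM. These differences did not exceed the spread between libraries, and after median-ratio scaling of the libraries they turned to -0.072 and -0.24. Without Normal Ms1608, S100a8 passed the threshold at 1.89 (SE 0.39, limma adjusted p = 0.0392), and S100a9 did not (1.72, SE 0.60, limma adjusted p = 0.109). The second comparison has 3 MI and 2 Normal libraries.

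**Figure D1:**
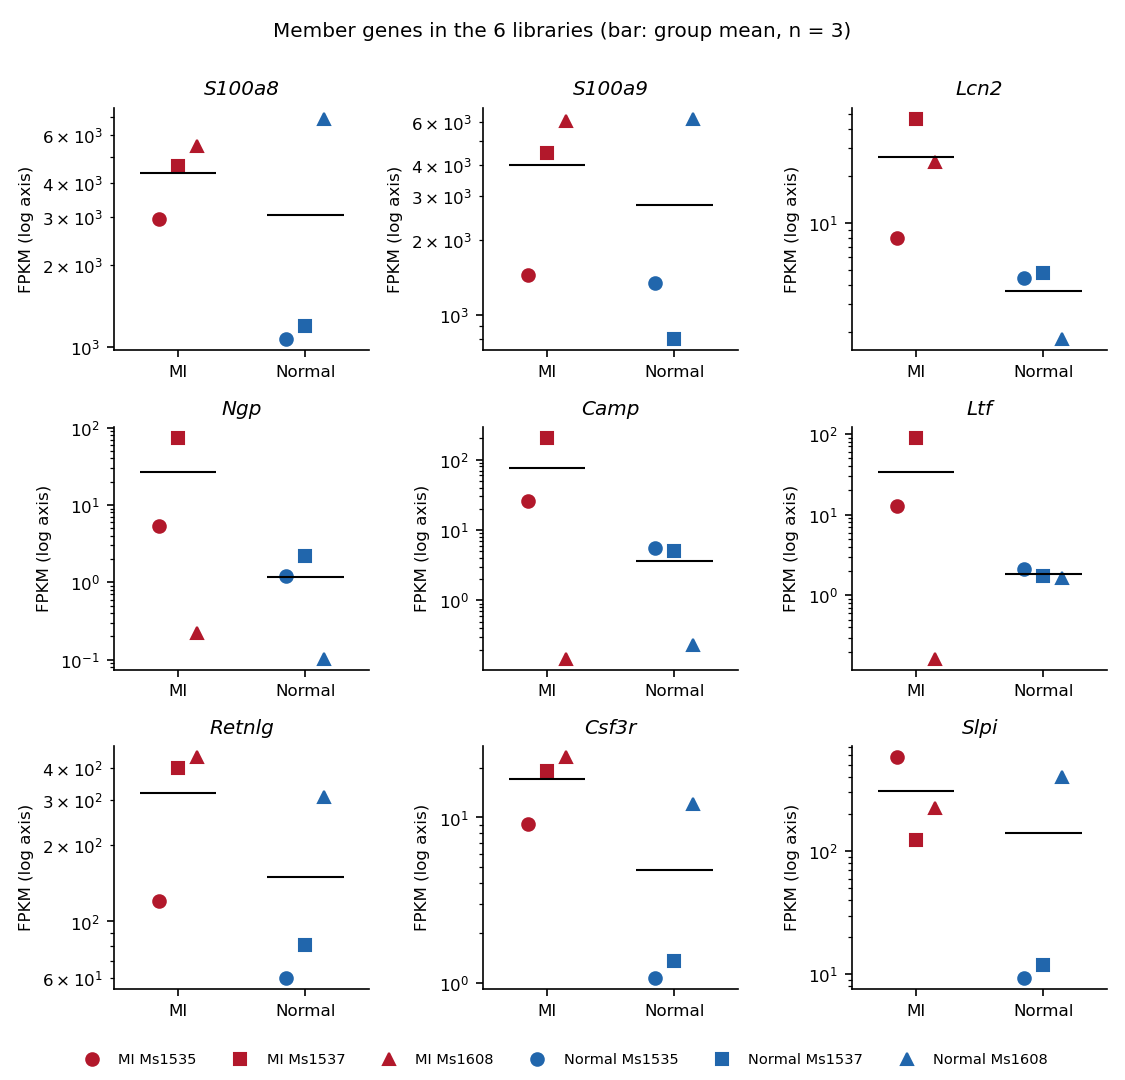
FPKM of the 9 genes on log axes in the 3 MI (red) and 3 Normal (blue) libraries, with the symbol giving the number in the title and the bar the group mean. For S100a8 and S100a9 the Normal Ms1608 triangle is the highest point (6890.1 and 6169 FPKM), whereas for Ngp and Camp both Ms1608 triangles are the lowest points.

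The secondary granule genes Camp, Ngp and Ltf followed another pattern, being highest in MI Ms1537 and lowest of the MI group in MI Ms1608. Camp and Ngp were close to the detection limit in both Ms1608 libraries. Camp, which encodes the antimicrobial peptide cathelicidin, was measured at 25.4 and 203 FPKM in the MI libraries Ms1535 and Ms1537 and at 0.148 FPKM in MI Ms1608. The Normal libraries held 5.52, 5.06 and 0.233 FPKM. The 2 lowest values correspond to about 3 and 5 fragments on its single annotated transcript, and that of MI Ms1537 to about 4776. Camp in MI Ms1608 was thus below every Normal library, although S100a8 in that library was the highest of the MI group.

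Ngp, a cystatin-like protein of secondary granules, was measured at 5.37, 73.4 and 0.22 FPKM across MI and at 1.21, 2.19 and 0.103 FPKM across Normal. The implied fragments were about 269, 3119 and 8 in MI and 54.5, 80.1 and 4 in Normal. Ltf, which encodes the iron-binding protein lactoferrin, was measured at 12.7, 89.0 and 0.164 FPKM across MI and at 2.11, 1.71 and 1.65 FPKM across Normal. Both genes shared with Camp the order of the MI libraries, with Ms1537 first and Ms1608 last, and Ltf differed in that Normal Ms1608 stood near the other Normal libraries.

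The differences of these genes between groups were large but within the spread between libraries. The log2 difference was 2.33 for Camp (SE 1.59, limma adjusted p = 0.452), 2.07 for Ngp (SE 1.26, limma adjusted p = 0.405) and 2.004 for Ltf (SE 1.30, limma adjusted p = 0.434). Means were 76.0 ± 110 against 3.61 ± 2.93 FPKM for Camp, 26.3 ± 40.8 against 1.17 ± 1.04 FPKM for Ngp and 34.0 ± 48.1 against 1.82 ± 0.248 FPKM for Ltf (SD, n = 3). MI Ms1537 weighed most: without it the log2 differences were between 0.49 for Ngp and 0.59 for Camp, below the median of 0.67 over all tested genes in that fit, and without MI Ms1608 they reached 3.46 for Ngp, 4.33 for Camp and 3.64 for Ltf. In none of the 6 fits that left out 1 library did limma's adjusted p for Camp, Ngp or Ltf fall below 0.248.

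Relative to S100a8 in the same library, Camp, Ngp and Ltf were lowest in the Ms1608 libraries of both groups. Camp amounted to 0.863% and 4.38% of S100a8 in MI Ms1535 and Ms1537 and to 0.516% and 0.422% in the Normal libraries of those numbers. In MI Ms1608 and Normal Ms1608 it amounted to 0.00270% and 0.00339%. Ngp showed the same ordering, with 0.182% and 1.59% in the first 2 MI libraries, 0.113% and 0.182% in the first 2 Normal libraries, and 0.00402% and 0.00149% in the Ms1608 libraries. Ltf had 0.433% and 1.93%, 0.197% and 0.143%, and 0.00299% and 0.0239%, in the same order of libraries. Retnlg, by contrast, stayed between 4.10% and 8.60% of S100a8 in all 6 libraries. Calprotectin transcripts were thus present at high level in 2 libraries that held next to no Camp or Ngp, 1 from each group.

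**Figure D2:**
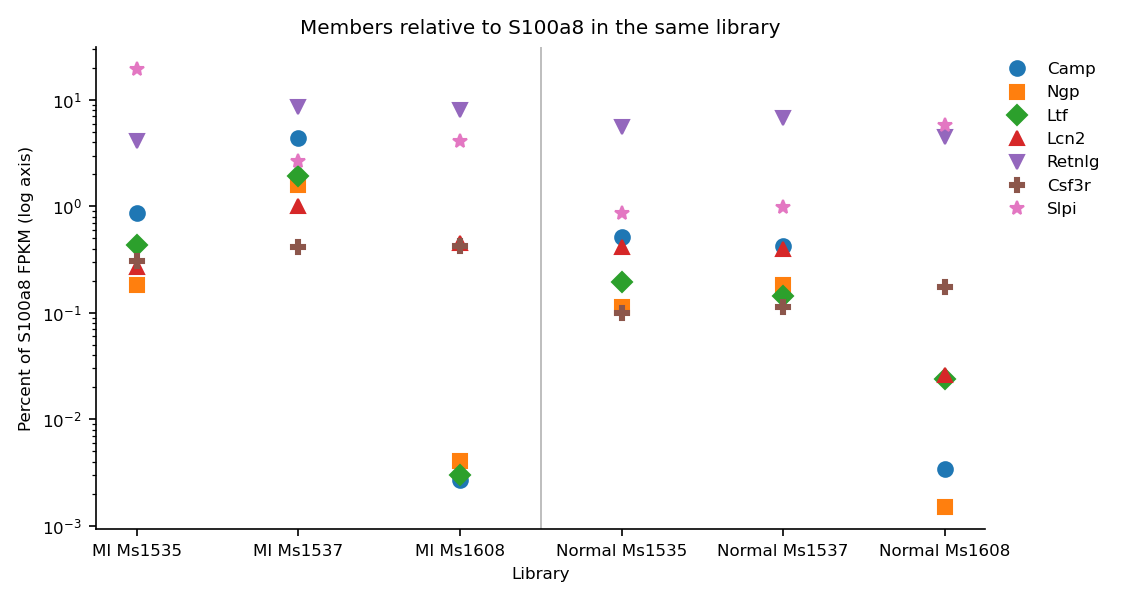
FPKM of 7 members as a percent of S100a8 FPKM in the same library, on a log axis, with MI libraries to the left of the grey line. Retnlg stays between 4.10% and 8.60%, while Camp and Ngp lie below 0.005% in both Ms1608 libraries and above 0.1% in the other 4.

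Lcn2, which encodes lipocalin 2, a secondary granule protein that binds bacterial siderophores and is also made by stimulated endothelium and epithelium, was the only member with no overlap between groups. It was measured at 7.98, 46.4 and 24.6 FPKM across MI and at 4.41, 4.76 and 1.79 FPKM across Normal. Its means were 26.3 ± 19.3 and 3.66 ± 1.62 FPKM (SD, n = 3), which differed by 2.32 on that log2 scale (SE 0.80, limma adjusted p = 0.252). All 3 MI libraries stood above all 3 Normal libraries for 25% of all tested genes, so 1 of 9 members is not above that background. Lcn2 joined neither pattern fully, since MI Ms1608 held more of it than MI Ms1535 while Normal Ms1608 held the least.

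Retnlg, a resistin-like secreted protein of neutrophils, and Csf3r, the receptor for the neutrophil growth factor G-CSF, followed the calprotectin pattern. Retnlg was measured at 121, 398 and 439 FPKM across MI and at 60.01, 81.3 and 307 FPKM across Normal. Normal Ms1608 thus lay above MI Ms1535 and below the other MI libraries. The log2 difference of Retnlg was 1.26 (SE 0.80, limma adjusted p = 0.424) and, without Normal Ms1608, 1.97 (SE 0.59, limma adjusted p = 0.0810).

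Csf3r was measured at 9.13, 19.2 and 23.1 FPKM across MI and at 1.06, 1.35 and 12.1 FPKM across Normal, again with Normal Ms1608 above MI Ms1535 only. The log2 difference of Csf3r was 2.09 (SE 0.86, limma adjusted p = 0.285). Without Normal Ms1608 it passed the threshold, at 2.95 (SE 0.54, limma adjusted p = 0.0298). Csf3, its ligand, was barely detected, with at most 0.0837 FPKM in any library.

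Slpi, a secreted inhibitor of neutrophil elastase and cathepsin G that epithelial cells and macrophages also make, showed the widest gap between MI and the first 2 Normal libraries. It was measured at 577, 124 and 223 FPKM across MI, at 9.32 and 11.8 FPKM in the Normal libraries Ms1535 and Ms1537, and at 404 FPKM in Normal Ms1608. MI Ms1535, the lowest MI library for the calprotectin genes, Retnlg and Csf3r, was the highest for Slpi. The log2 difference of Slpi was 2.75 (SE 1.29, limma adjusted p = 0.314), and without Normal Ms1608 it passed the threshold, at 4.46 (SE 0.63, limma adjusted p = 0.0210). Epithelial markers, 4 genes including Epcam, summed to between 0.390 and 3.30 FPKM across MI and between 0.102 and 0.885 FPKM across Normal.

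Among all 10168 tested genes, limma called 1 (0.00983%) at an adjusted p under 0.05, the predicted gene Gm24890, which was listed at 0 in all Normal libraries and is named here after its values were seen, and 0 of the 9 members. At an unadjusted p under 0.05, limma found 1635 genes higher (16.1%) and 21 lower (0.207%) in MI, among them Lcn2 and Csf3r as 2 of the 9 members, both higher. All 9 members had log2 differences above 0, as did 87.2% of all tested genes, and their median was 2.07 against 0.78 over all tested genes. Relative to that general shift, S100a8 and S100a9 stood 0.24 and 0.076 higher, Retnlg 0.48, and the other 6 members between 1.22 (Ltf) and 1.96 (Slpi). Rescaling by median ratios, upper quartiles or quantiles changed the shift to -0.028, 0.20 and -0.046, and S100a9 then stood -0.21, -0.084 and 0.52 from it. S100a8 stood -0.043, 0.080 and 0.55 from it under the same scalings.

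Without Normal Ms1608, 452 genes (4.45%) were called higher and 7 (0.0688%) lower by limma at an adjusted p under 0.05. The members called higher were S100a8, Csf3r and Slpi, 3 of 9. The same 3 members were called higher when limma weighted each library by its estimated quality, as were 31.6% of all tested genes. All MI libraries stood above both remaining Normal libraries for 6 of 9 members, against 52.6% of all tested genes; Camp, Ngp and Ltf were the exceptions, each through MI Ms1608.

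**Figure D3:**
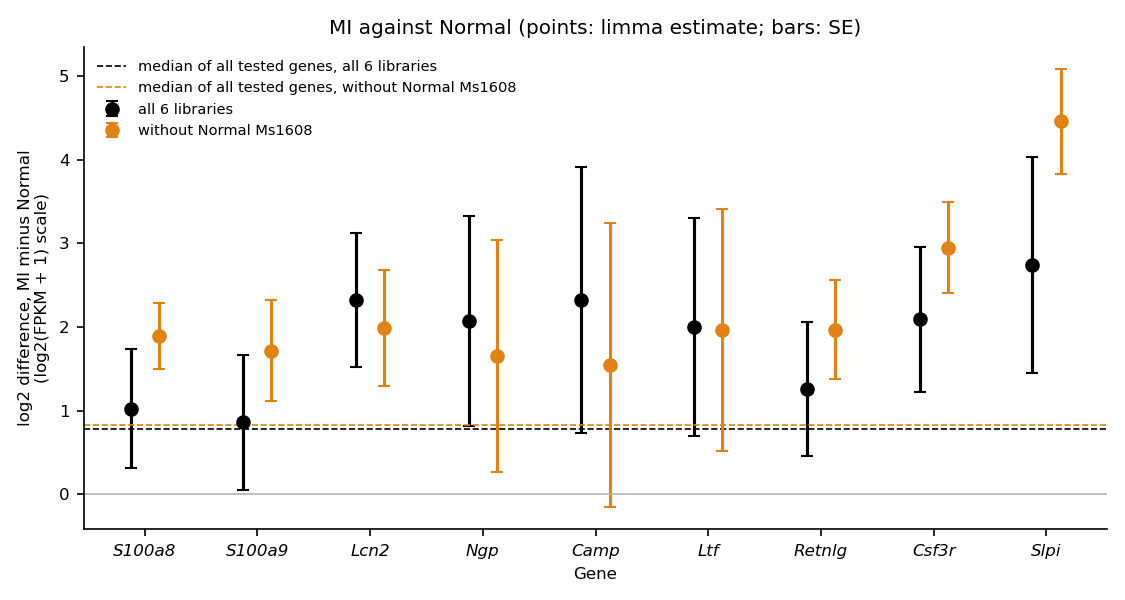
Log2 difference between MI and Normal on the log2(FPKM + 1) scale for each member, with all 6 libraries (black) and without Normal Ms1608 (orange); bars are limma standard errors and dashed lines the medians of all tested genes. Leaving out Normal Ms1608 moves S100a8 from 1.02 to 1.89 and Slpi from 2.75 to 4.46 with shorter bars, while the bars of Camp, Ngp and Ltf stay long.

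Relative to Ptprc, the leukocyte antigen CD45, the calprotectin genes, Retnlg and Lcn2 were higher in Normal Ms1535 and Ms1537 than in any MI library. Ptprc itself was measured at 68.7, 77.9 and 75.9 FPKM across MI and at 3.13, 4.72 and 174 FPKM across Normal. The ratio of S100a8 to Ptprc was 42.9, 59.4 and 72.15 in MI, 342 and 254 in the first 2 Normal libraries, and 39.65 in Normal Ms1608. Normal Ms1535 and Ms1537, with little Ptprc, thus held more S100a8 per Ptprc than any MI library. The ratio of Retnlg to Ptprc was 1.76, 5.11 and 5.78 in MI against 19.2, 17.2 and 1.76 in Normal, the same ordering of the first 2 Normal libraries above MI. For Lcn2 it was 0.116, 0.596 and 0.324 against 1.41, 1.01 and 0.0103. Csf3r differed from these, with 0.133, 0.246 and 0.304 in MI and 0.341, 0.287 and 0.0696 in Normal, so that the groups interleaved. Slpi had 8.40, 1.59 and 2.94 against 2.98, 2.505 and 2.32, also interleaved. A ratio of 2 genes shows unequal change and does not say which of them moved.

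**Figure D4:**
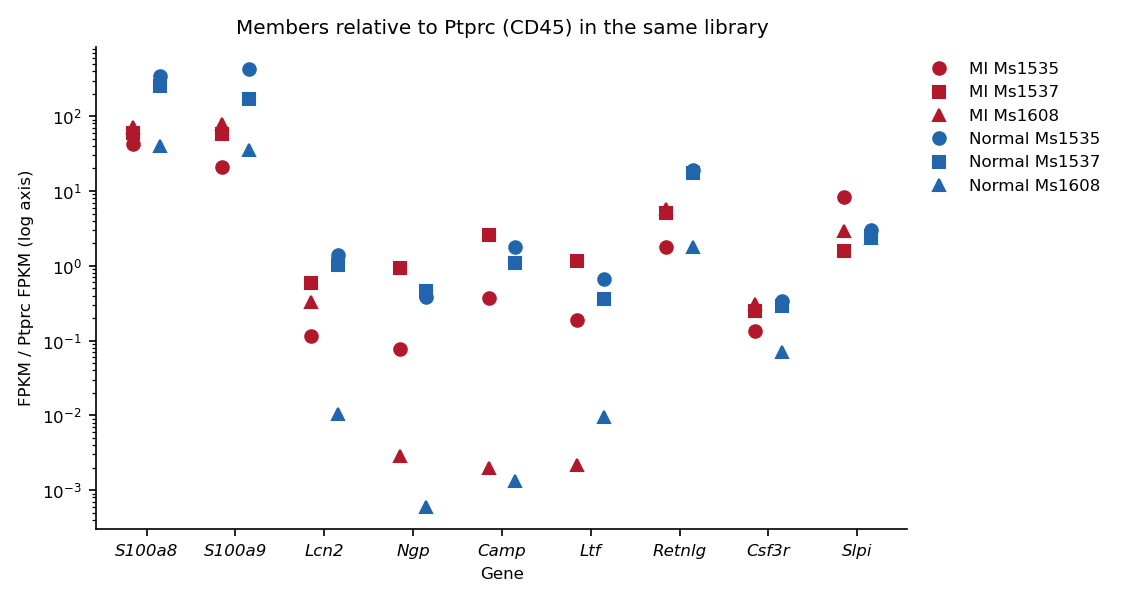
FPKM of each member divided by the FPKM of Ptprc in the same library, on a log axis, for MI (red) and Normal (blue) libraries. For S100a8, S100a9, Retnlg and Lcn2 the Normal Ms1535 and Ms1537 points lie above all MI points, and for Camp and Ngp both Ms1608 triangles lie at the bottom.

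Other neutrophil genes and genes related to the members, from lists written from textbook knowledge, were examined beside the members. Of 67 genes in these lists, 66 were in the table and 47 passed the filter. The 47 include 7 other S100 genes, 6 cytokines of neutrophil traffic and Tlr4, from lists not confined to neutrophil genes. Limma called 0 of the 47, with 9 higher and 0 lower at an unadjusted p under 0.05, near the 16.1% of all tested genes that were higher by that measure. Their median log2 difference was 1.33 against 0.78 over all tested genes, and 45 of 47 lay above 0, against 87.2% of all tested genes. Without Normal Ms1608, 14 of 47 were called higher by limma, against 4.45% of all tested genes. In the same fit 10 of the 10 markers shared by leukocytes were called higher, so such calls were not particular to neutrophil genes. Normal Ms1608 had been set apart partly by these markers, so such calls are not independent of leaving it out.

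Primary granule genes, made at the earliest stage, were near or at 0 throughout, and none of the 6 passed the filter. Mpo, the gene of myeloperoxidase, reached at most 0.186 FPKM and Prtn3, the gene of proteinase 3, at most 0.235 FPKM. Elane, the gene of neutrophil elastase, was listed at 0 in all Normal libraries and had up to 0.0386 FPKM across MI, and Fcnb, which encodes a ficolin, was listed at 0 in all 6 libraries. Ctsg, cathepsin G, was at 1.81 FPKM in MI Ms1535 and at most 0.104 FPKM elsewhere. The mast cell, basophil and eosinophil markers, 9 genes, summed to 403 FPKM in that library, of which Cpa3 alone made 333 FPKM. They summed to 11.3 and 7.51 FPKM in MI Ms1537 and Ms1608 and to 2.98 to 75.3 FPKM across Normal. Cpa3 made 73.2 FPKM of the highest Normal sum, that of Normal Ms1608. The part of such cells in the Ctsg value was not tested. The primary granule genes were thus scarce even in MI Ms1537, where Camp, Ngp and Ltf were highest.

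Later granule and secreted genes numbered 13, of which 11 were tested and 0 called by limma. Without Normal Ms1608, 5 (Lyz2, Mmp9, Itgb2, Itgam and Adam8) were called higher, as were 4.45% of all tested genes. In that fit 10 of the 10 markers shared by leukocytes were also called higher. Every MI library stood above every Normal library for 3 of the 11, against 25% of all tested genes. Mmp8, the neutrophil collagenase, was measured at 3.74, 40.5 and 17.0 FPKM across MI and at 0.233, 1.81 and 0.445 FPKM across Normal, with no overlap (log2 difference 3.15, SE 0.87, limma adjusted p = 0.245). Mmp9, gelatinase B, was at 22.4, 30.9 and 59.9 FPKM across MI, at 4.48 and 2.41 FPKM in the Normal libraries Ms1535 and Ms1537, and at 158 FPKM in Normal Ms1608. The 2 metalloproteinases therefore parted in Normal Ms1608, which was highest for Mmp9 and low for Mmp8. Wfdc21, a secreted protein of the same domain family as Slpi, was at 82.9, 227 and 233 FPKM across MI and at 45.0, 31.2 and 7.67 FPKM across Normal. Wfdc17, another of that family, was at 155, 94.7 and 387 FPKM across MI and 47.8, 29.4 and 405 FPKM across Normal. Lyz2, the lysozyme of neutrophils and macrophages, was at 729, 1116 and 2169 FPKM across MI and 143, 215 and 2454 FPKM across Normal.

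Surface receptors parted in the same way. Ly6g, the antigen by which mouse neutrophils are usually sorted, was measured at 0.0817, 8.60 and 5.34 FPKM across MI and at 1.14, 0.15 and 0.459 FPKM across Normal, so that MI Ms1535 was the lowest library of all. Cxcr2, the chemokine receptor of mature neutrophils, was at 3.06, 2.30 and 12.8 FPKM across MI and at 0.746, 0.299 and 1.15 FPKM across Normal, with no overlap (log2 difference 1.75, SE 0.65, limma adjusted p = 0.262). Fpr1, a receptor for formylated peptides, was at 0.812, 13.2 and 24.7 FPKM across MI and 3.95, 1.70 and 0.398 FPKM across Normal. Clec4d, a lectin receptor that monocytes also carry, was at 153, 165 and 258 FPKM across MI, at 34.5 and 40.2 FPKM in the Normal libraries Ms1535 and Ms1537, and at 397 FPKM in Normal Ms1608. Of 10 tested receptor genes 0 were called by limma. Without Normal Ms1608, 2 (Clec4d and Clec4e) were called higher, as were 4.45% of all tested genes. In that fit 10 of the 10 markers shared by leukocytes were also called higher. Every MI library stood above every Normal library for 2 of the 10 receptor genes, against 25% of all tested genes.

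The subunits of the phagocyte NADPH oxidase, which neutrophils and monocytes share, were represented by 4 tested genes with 0 calls, and all 4 were called higher by limma without Normal Ms1608, as were 4.45% of all tested genes and 10 of the 10 markers shared by leukocytes, a list that also holds the oxidase gene Rac2. Cybb, the catalytic subunit, was at 12.9, 10.0 and 20.1 FPKM across MI and at 0.826, 1.52 and 52.2 FPKM across Normal. Stefins, cysteine protease inhibitors of neutrophils that stand in a cluster of near-identical genes and are therefore uncertain, had 0 of 4 called; Stfa2l1 was at 12.5, 28.8 and 45.9 FPKM across MI and 5.36, 4.91 and 3.06 FPKM across Normal.

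Among transcription factors of granulocytes, Spi1, which encodes PU.1, was at 11.1, 45.0 and 25.4 FPKM across MI and 1.45, 1.20 and 3.61 FPKM across Normal, with no overlap (log2 difference 3.07, SE 0.75, limma adjusted p = 0.245, and 3.40, SE 0.62, limma adjusted p = 0.0289 without Normal Ms1608). Cebpe, needed for secondary granule genes, was below the filter, at most 0.677 FPKM, its value in MI Ms1608. Cebpd, a factor of mature myeloid cells, was at 48.5, 95.6 and 78.4 FPKM across MI and 28.7, 25.8 and 161 FPKM across Normal. Of 4 tested factors 0 were called by limma. Without Normal Ms1608, 2 (Spi1 and Cebpb) were called higher, as were 4.45% of all tested genes. In that fit 10 of the 10 markers shared by leukocytes were also called higher. Every MI library stood above every Normal library for 1 of the 4 factors, against 25% of all tested genes.

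**Figure D5:**
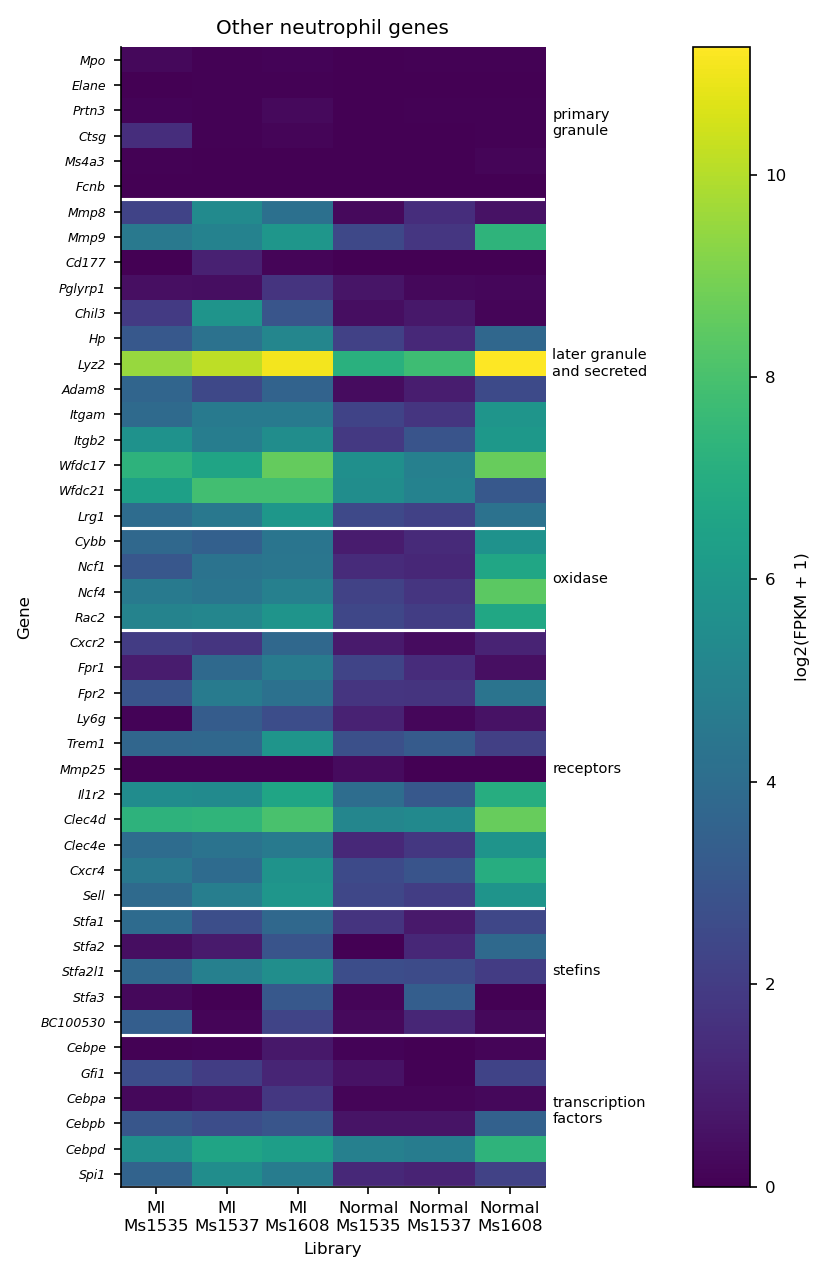
Log2(FPKM + 1) of other neutrophil genes (rows, grouped by role) in the 6 libraries (columns). Primary granule genes are dark in all columns, Normal Ms1608 is bright for Lyz2, Ncf4 and Mmp9, and it is dark for Mmp8, Cxcr2 and Fpr1.

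Receptors of the members' products were low. Tlr4, through which extracellular calprotectin signals, was at 1.21, 2.52 and 4.39 FPKM across MI and 1.14, 3.28 and 0.109 FPKM across Normal (log2 difference 0.68, SE 0.62, limma adjusted p = 0.576), and Ager, its other receptor, reached 0.415 FPKM. Of 7 tested S100 genes outside calprotectin, which act in many cell types, 0 were called by limma, and S100a6 alone had no overlap, at 2183, 1629 and 1520.0 FPKM across MI against 668, 695 and 1513 FPKM across Normal. That is 1 of 7, where 25% of all tested genes had every MI library above every Normal library. In a list of cytokines of neutrophil traffic, which includes Cxcl12, 6 were tested and 0 called by limma. Without Normal Ms1608, 1 of the 6, Cxcl2, was called higher, as were 4.45% of all tested genes. Cxcl2 was at 247, 144 and 409 FPKM across MI and 11.4, 23.9 and 969 FPKM across Normal, and Il1b, a cytokine made by neutrophils and monocytes themselves, at 464, 626 and 2069 against 113, 204 and 2408 FPKM.

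Markers of other leukocytes were also high in MI and in Normal Ms1608. The 12 monocyte and macrophage markers summed to 990.5, 1398 and 2452 FPKM across MI and to 174, 261 and 3222 FPKM across Normal, and none was listed at 0 in any library. Adgre1, the gene of the F4/80 antigen excluded by the sort, was at 0.282, 1.70 and 7.21 FPKM across MI and 0.128, 0.247 and 0.00904 FPKM across Normal. The 8 neutrophil markers summed to 42.7, 125 and 166 FPKM across MI and to 16.2, 11.3 and 164 FPKM across Normal, where Mmp9 alone made 158 FPKM of the last value. Cd177 was listed at 0 in Normal Ms1537 and Mmp25 in MI Ms1608. The 7 markers of immature myeloid cells summed to at most 7.57 FPKM. The part of monocytes or of other cells in the values of the members was not tested.

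Across the 6 libraries, the tested genes with the pattern most like S100a8 by Pearson correlation of log2(FPKM + 1), leaving out members, predicted genes, small RNAs and pseudogenes, were Nol9 (0.998), Chp1 (0.996), H2-Eb1 (0.994), Il17ra (0.993) and Itga4 (0.993). For Ngp they were Polr3gl (0.999), Morc4 (0.986), Abcd4 (0.983), Commd2 (0.981) and Lrrcc1 (0.9802). With 8825 candidates and 6 libraries that share their depth and composition, 188 genes reached 0.95 with S100a8 and 44 with Ngp, so the names serve as a description only. Among the members themselves, the correlation over the same 6 libraries was 0.97 between Ngp and Camp, 0.96 between Ngp and Ltf, 0.93 between S100a8 and Retnlg and 0.047 between S100a8 and Ngp.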

How the data were processed

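RNA from sorted cells was amplified by T7 in vitro transcription and sequenced in pairs, per the labels' protocols; this favours 3' ends and can widen the spread between libraries. The authors deposited FPKM values, 1 column per library. STAR 2.4.2a, Cufflinks 2.2.1 and GRCm38 are named in the submitters' processing notes; the annotation release, strand setting and treatment of multi-mapping reads are not given in the sources used here. Genes that reached 1 FPKM in 3 or more libraries (10168 of 45038) were tested with limma 3.58.1 (R 4.3.3, mean-variance trend, group only) on log2(FPKM + 1), with Benjamini-Hochberg adjustment and a threshold of 0.05. A pseudocount of 1 understates changes of low genes. An exact permutation test of 3 against 3 libraries cannot give a two-sided p under 0.1 and was not used. The fit was tested on simulated data drawn with less spread than these libraries show, so its power at their spread was not examined.

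Depth was read from genes with 1 annotated transcript (GENCODE M21, GRCm38), whose low FPKM, times length less 180 bases, fell on steps. Between 92.2% and 93.4% of these values lay within 0.1 of a whole number, against 20% if evenly spread; the step was fitted to the same values. The labels' protocol states a smaller number of reads, which was not reconciled. Then 3 fragments on a 2 kb transcript equal 0.0343 to 0.0474 FPKM. Fragment numbers cover counting error only and are given for genes with 1 transcript.

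The members and gene lists were chosen with earlier results of these data known. All members are named. One gene of the other lists is not reported here and was left out of their counts. Of the other lists, genes past the threshold, up to 4 of the highest mean level and those that define a list could be named. Alternatives were other pseudocounts, filters and scalings, no trend, sample weights, a replicate block and each library left out.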

Additional observations from a re-analysis of the deposited data

How the results depend on the processing

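Of 144 refits of the 9 members (16 alternatives each), 136 kept both direction and side of the threshold in limma. S100a8 and S100a9 turned to -0.072 and -0.24 after median-ratio scaling. S100a8, Csf3r and Slpi passed the threshold with sample quality weights (1.59, 2.54 and 4.82, limma adjusted p = 0.00987, 0.00556 and 0.00334), which gave Normal Ms1608 a weight of 0.117, and without Normal Ms1608 (1.89, 2.95 and 4.46); the cause was not tested. Leaving out 1 library gave log2 differences of 0.55 to 1.89 for S100a8, 0.24 to 1.72 for S100a9, 1.77 to 2.97 for Lcn2, 0.49 to 3.46 for Ngp, 0.59 to 4.33 for Camp, 0.51 to 3.64 for Ltf, 0.80 to 1.97 for Retnlg, 1.62 to 2.95 for Csf3r and 1.81 to 4.46 for Slpi.

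With sample quality weights limma called 3209 genes higher (31.6%) and 79 lower, and 34 of the 47 tested genes of the other neutrophil and related lists. Leaving out 1 library gave 1 to 452 genes higher, 0 to 7 lower and 0 to 14 of the 47, the highest each time without Normal Ms1608. Without MI Ms1537 the 1 gene called lower was the clone-named RP23-440C1.3, named after its values were seen.

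With the shared numbers as a replicate block, limma called 1 gene higher, 0 lower, and 0 members, and the block changed no call of a member. The block lowered the SE for S100a8, S100a9, Camp, Ngp, Ltf, Csf3r and Slpi, and raised it for Lcn2 and Retnlg. For Camp the SE fell from 1.59 to 0.99 and for Ngp from 1.26 to 0.85. Same-numbered libraries deviated from their group means with correlations of -0.052, 0.098 and 0.087. With 3 libraries per group, these values cannot decide whether the numbers are pairs. The labels do not say so, and the main fit therefore used the group only. Depth limits Camp and Ngp in the Ms1608 libraries, at 3 to 8 implied fragments.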
